A study of Mus musculus with 6 samples.

Results

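The genes described here were 54 cytokines, growth factors, their receptor chains and feedback inhibitors, out of 21951 protein-coding genes of GENCODE M21. A gene was counted in a peak list when at least 1 peak of the list overlapped the gene or the 20 kb on either side of it (genome build mm10). Accessible chromatin was read by ATAC-seq, where a transposase inserts adapters into unprotected DNA, in M-MDSCs (monocytic myeloid-derived suppressor cells) from orthotopic Hepa 1-6 tumors, a mouse hepatoma grown in the liver. The mice were young female C57BL/6 J animals of WT genotype, chosen for a high share of MDSCs in the blood, and the cells were sorted as CD11b+Ly-6ChiLy-6G-. All 3 groups carried the same tumor and received daily intraperitoneal injections, of MS-275, of CXD101 or of the vehicle solution without inhibitor. MS-275 and CXD101 inhibit HDAC1-3, enzymes that take acetyl groups off histones. There were 2 libraries per group, 6 in all, and each of the 6 peak lists compared the pooled libraries of a pair of groups. Peaks with more signal in an inhibitor group than in vehicle are called gained, those with more signal in vehicle are called lost, and the remaining pair of lists compared the inhibitors directly.

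Cytokines are secreted or membrane-bound signals of immune cells. Receptors of the IL-6, IL-10, IL-12 and interferon families and those of GM-CSF and G-CSF signal through JAK kinases and STAT transcription factors, and SOCS proteins shut this signal off. The receptors Csf1r, Kit and Flt3 are tyrosine kinases themselves. Receptors for IL-1, IL-18 and TNF lead to NF-kB, and TGF-beta receptors lead to SMAD proteins. CSF1 and GM-CSF promote the differentiation and survival of monocytic cells. IL-6, IL-10, TGF-beta and GM-CSF are known for their roles in the expansion and suppressive function of MDSCs in tumors. Among the cells that IL-12, IL-18, IL-27 and TNF act on are the T cells and NK cells around them.

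The following stretches of 101 bases around peak summits show the DNA behind the results below (mm10, plus strand, 5′ to 3′). The first 6 are, list by list, the member summits that ranked first by −log10 p-value, with 3 from the longest list. Windows that touched an exon were left out, which removed higher summits at Tgfbr2, Flt3 and Osm. Peaks are called stronger or weaker by −log10 p-value throughout, and the last 2 are summits in promoter regions of a receptor and a ligand gene. Capitals mark the letters of a searched motif, which was AP-1 at Tnfrsf1b, STAT at Tgfb1 and IRF at Tnfrsf1a, and the other 5 held no searched motif.
Il18r1 and Il18rap, gained with MS-275, chr1:40501921-40502021: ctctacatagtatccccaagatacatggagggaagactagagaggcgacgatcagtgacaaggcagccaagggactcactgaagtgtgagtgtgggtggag
Il27, gained with MS-275, chr7:126607007-126607107: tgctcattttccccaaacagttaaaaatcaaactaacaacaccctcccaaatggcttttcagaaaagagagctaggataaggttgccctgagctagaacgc
Tnfrsf1b, gained with MS-275, chr4:145261772-145261872: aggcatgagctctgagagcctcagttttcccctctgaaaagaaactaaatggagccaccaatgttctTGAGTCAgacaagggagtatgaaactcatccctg
Il18rap, lost with MS-275, chr1:40540873-40540973: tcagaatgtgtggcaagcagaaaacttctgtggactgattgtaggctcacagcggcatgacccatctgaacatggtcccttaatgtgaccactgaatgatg
Il10rb, lost with CXD101, chr16:91398045-91398145: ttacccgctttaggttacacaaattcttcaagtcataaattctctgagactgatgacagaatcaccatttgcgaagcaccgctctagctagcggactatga
Tgfb1, higher with MS-275 than with CXD101, chr7:25683829-25683929: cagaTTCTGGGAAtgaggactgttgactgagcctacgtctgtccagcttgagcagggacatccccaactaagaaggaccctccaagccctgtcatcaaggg
Tnfrsf1a promoter, gained with MS-275, chr6:125345191-125345291: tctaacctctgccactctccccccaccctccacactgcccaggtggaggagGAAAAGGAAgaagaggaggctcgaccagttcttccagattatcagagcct
Ltb promoter, gained with MS-275, chr17:35189498-35189598: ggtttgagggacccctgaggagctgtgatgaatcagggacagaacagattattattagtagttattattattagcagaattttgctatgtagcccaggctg

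Chromatin around 16 of the 54 genes was called more open with MS-275 than with vehicle, and around none with CXD101. A total of 35 MS-275 gained peaks lay in the windows of 16 members (29.6%, 95% Wilson interval 19.1 to 42.8), where 18.6% of all protein-coding genes had such a peak. Of 25 ligands, 6 had a gained peak (Il12a, Il18, Il27, Tnf, Lta and Ltb), and of 27 receptor chains 9 did (Il18r1, Il18rap, Il1rap, Il10rb, Tnfrsf1a, Tnfrsf1b, Tgfbr2, Csf2ra and Flt3). Of the 2 feedback inhibitors, Socs1 had one. No CXD101 gained peak was found at any member, where 0.961% of all genes had one. The CXD101 gained list was short, with 284 peaks against 8480 in the MS-275 gained list. The paper counts more peaks than this for both inhibitors. By the rule of 3 counts, 0 of 54 genes allows a share of up to 5.56%, and the Wilson interval reaches 6.64%, so the background rate could not have been told from 0 at this number of genes. Neighboring genes shared peaks, and the 16 members stood for 13 loci. These intervals and limits cover counting error only.

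Sites that were higher in vehicle were found at few members. MS-275 lost peaks lay at 4 members (7.41%, 95% interval 2.92 to 17.6, all genes 2.9%) and CXD101 lost peaks at 4 (7.41%, the same interval, all genes 3.62%). Il18rap, Osm and Socs3 were in both lost lists, Lif only in that of MS-275 and Il10rb only in that of CXD101. Both lost lists share the vehicle libraries, so their members are not independent. When the window was narrowed to 5 kb, 1 member (1.85%) remained in each lost list, against 1.9% of all genes for MS-275 and 2.23% for CXD101.

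The direct comparison of the inhibitors listed 10 members with more signal in MS-275 (18.5%, 95% interval 10.4 to 30.8), against 6.62% of all genes. They were Tnf, Lta, Ltb, Tgfb1, Tgfbr2, Flt3, Csf2rb, Il10rb, Il4ra and Socs1, at 8 loci. No member had a peak with more signal in CXD101, where 0.0137% of all genes did. That list held only 2 peaks, against 1650 with more signal in MS-275, so none says little at this number of genes. With the 5 kb window, 8 members (14.8%) were listed against 4.04% of all genes.

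**Figure D1:**
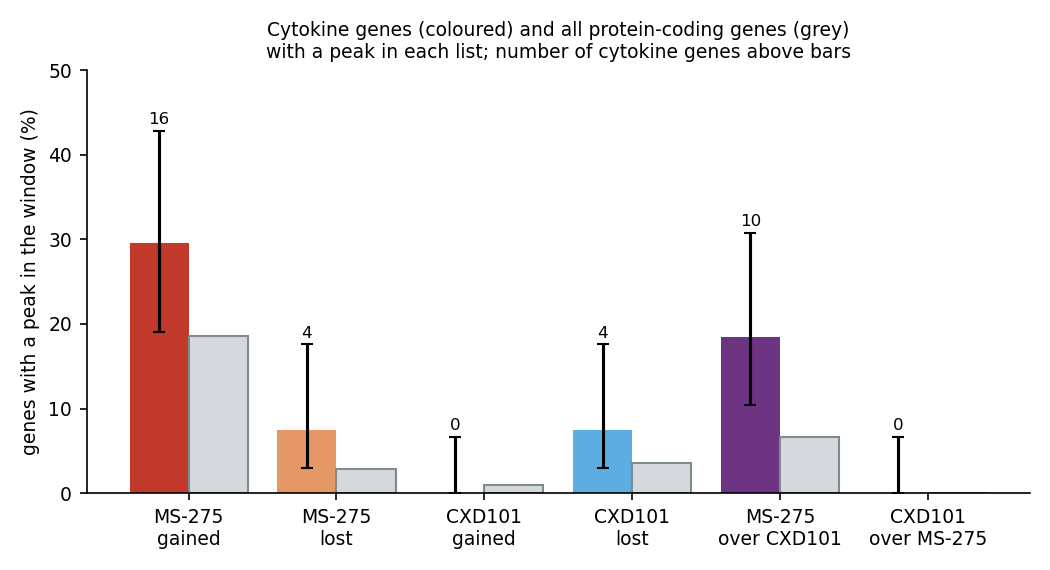
Percentage of genes with at least 1 peak in the window (y axis) for each of the 6 lists (x axis), for the 54 members (coloured bars, with 95% Wilson intervals and the number of members above) and for all protein-coding genes (grey bars). The coloured bar is above the grey bar in 4 lists, for example MS-275 over CXD101 (18.5% against 6.62%), and it is 0 for CXD101 gained and CXD101 over MS-275.

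The size of the peaks at members was set beside that of their whole lists. The median fold enrichment of MS-275 gained member peaks was 2.87 (1.61 to 3.98), and that of the whole list was 2.88. It was 2.51 for the 3 MS-275 lost peaks (whole list 3.21), 2.60 for the 5 CXD101 lost peaks (whole list 2.72) and 2.27 for the 10 direct peaks (whole list 2.39). At gained summits of members, the median was 60.3 tags for MS-275, and the median vehicle level was 18. In the whole list these medians were 49.8 and 15.8. At MS-275 lost summits the median vehicle value was instead lower at members (38 against 43 in the whole list). Tags are pileups at the summit in the group with more signal. The level of the other group is the control level of the MACS2 Poisson test. It need not equal the pileup of that group at the summit, and many vehicle levels were not whole numbers (36.2 at Il10rb). Tags and levels are scaled to the depth of the vehicle group. No library had a value of its own, so the spread between the replicates of a group is unknown and a single library could account for the signal of its group.

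**Figure D2:**
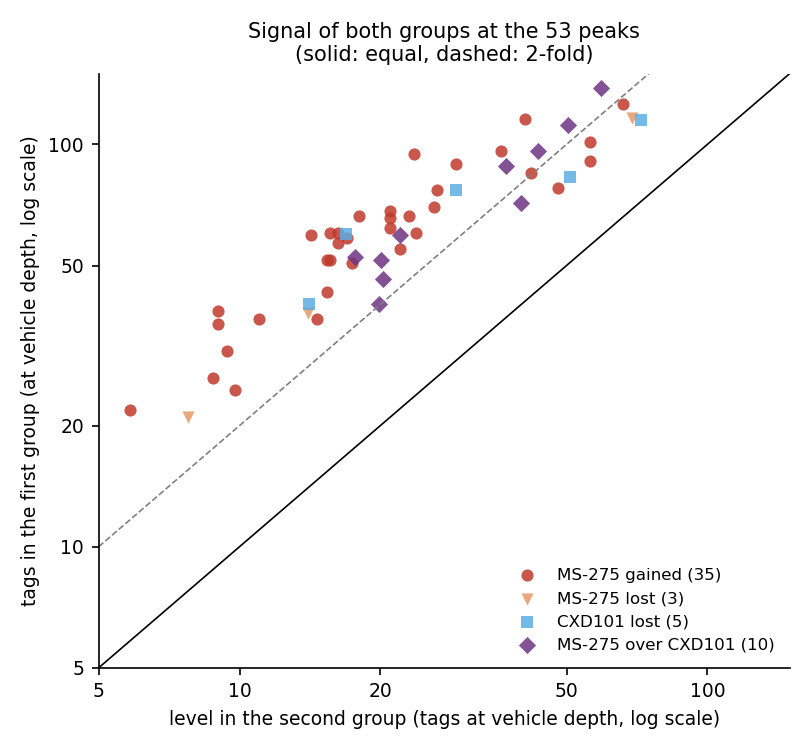
Tags at the summit in the group with more signal (y axis) against the level in the other group (x axis), both at vehicle depth and on log scales, for the 53 distinct peaks at members, with symbols for the 4 lists that hold any. Most points lie above the dashed line of a 2-fold ratio, and the lowest level among MS-275 gained peaks was 5.84 tags while the highest was 66.

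Receptors of the IL-1 family carried the strongest gained peak of all members. It lay between Il18r1 and Il18rap, which encode the binding chain and the accessory chain of the IL-18 receptor and sit side by side on chromosome 1 (40501863 to 40502120). MS-275 reached 94.4 tags there over a vehicle level of 23.6, a fold enrichment of 3.88 with a −log10 p-value of 27.7. The peak began 1.01 kb beyond the end of Il18r1, and its summit was 13391 bp before the start of Il18rap. A weaker peak nearby (40500946 to 40501232, fold enrichment 3.34) had 21.9 tags over 5.84. Both peaks are counted for both genes, and the data do not tell which gene, if any, they belong to.

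Il18rap was also lost in both inhibitor groups, at another site inside the gene. The lost summits lay close together in an intron, 747 bp and 769 bp from the nearest annotated start site. Vehicle had 38 tags over an MS-275 level of 14.0 (40540786 to 40541209, fold enrichment 2.60, −log10 p-value 7.51) and 40 tags over a CXD101 level of 14.1 (40540771 to 40540980, fold enrichment 2.72, −log10 p-value 8.38). Il18rap was thus the only member with peaks in both the MS-275 gained and the MS-275 lost list. For Il18r1, a pair of stronger lost peaks lay just beyond the window, at 20.73 kb (CXD101, fold enrichment 3.52) and 20.74 kb (MS-275, fold enrichment 3.61). These peaks were not counted for it.

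Il1rap, the accessory chain that IL-1 and IL-33 receptors share, had 2 gained peaks in introns on chromosome 16. The stronger (26692495 to 26692695) had 51.6 tags with MS-275 over a vehicle level of 15.6, a fold enrichment of 3.17 (−log10 p-value 12.5). The other (26668819 to 26669068) had 36.7 tags over 11 and a fold enrichment of 3.14, and its window held an IRF motif. Il18, the ligand of the IL-18 receptor, had 1 gained peak in an intron (chromosome 9, 50569989 to 50570210) with 56.8 tags over 16.2, a fold enrichment of 3.36 (−log10 p-value 14.6). IL-18 and both chains of its receptor were therefore all in the MS-275 gained list. Il1a, Il1b, Il1rn, Il33, Il1r1 and Il1r2 had no peak in any list.

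**Figure D3:**
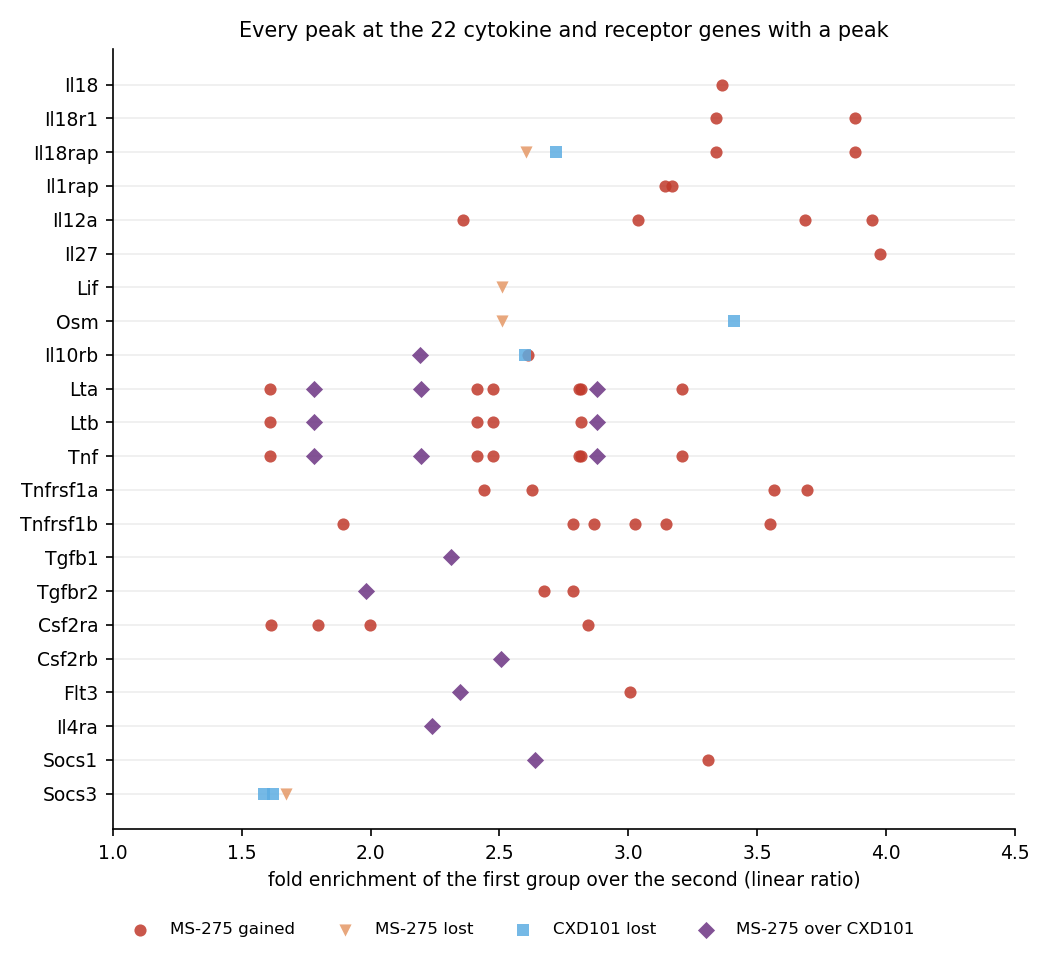
Fold enrichment as a linear ratio (x axis) of every peak in the windows of the 22 members that had any (y axis, ordered by family), with a symbol for each list. Il27 and Il12a reach the highest folds of MS-275 gained peaks (3.98 and 3.95), Socs3 has the lowest of the lost peaks (1.59 to 1.67), and Tnf, Lta and Ltb share their points.

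Among ligands of the IL-12 family, Il12a and Il27 gained signal with MS-275. Il12a encodes p35, a subunit of IL-12 and IL-35, and had 4 gained peaks on chromosome 3. A pair lay upstream, at 11.3 kb and 10.9 kb from the gene, and the stronger of these (68679130 to 68679352) had 38.5 tags over 9.0, a fold enrichment of 3.95 (−log10 p-value 12.9). The other pair lay in introns, where the stronger summit (68692145 to 68692689) had 35.8 tags over 9.0, a fold enrichment of 3.68 (−log10 p-value 11.0). Vehicle levels at the Il12a summits were low (9.0 to 9.80), below the median of 18 for member summits. Il27, the p28 subunit of IL-27, had 1 peak 11.98 kb before the gene (chromosome 7, 126606916 to 126607158). It had 59.5 tags over 14.2 and the highest fold enrichment of any member peak, 3.98 (−log10 p-value 18.8). Il12b, which encodes the p40 subunit of IL-12 and IL-23, had its nearest peak of any list 43.7 kb away, and Il6, Il10 and Il23a had no peak either.

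Osm and Lif, neighboring IL-6 family cytokines that signal through the shared chain encoded by Il6st, were in the lost lists. A single MS-275 lost peak between them (chromosome 11, 4249476 to 4249675) had 21 vehicle tags against 7.76 at MS-275, a fold enrichment of 2.51 (−log10 p-value 4.67), and with a −log10 q-value of 1.43 it was close to dropping out of the list. The CXD101 lost peak of Osm was stronger and lay on its other side, in an exon of Castor1 (4222288 to 4222491). Vehicle had 60 tags there over a CXD101 level of 16.9, a fold enrichment of 3.41 (−log10 p-value 16.0). The lost calls at Osm thus came from different sites with each inhibitor. Il6st and Il6ra had no peak in any list.

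Il10rb, a receptor chain shared by IL-10, IL-22 and type III interferons, was listed 3 times. Its MS-275 gained peak lay just before the gene on chromosome 16, in the promoter region. MS-275 had 96.2 tags over a vehicle level of 36.2 there, a fold enrichment of 2.61 (−log10 p-value 16.3). The direct list gave a peak at the same place, with 96.2 MS-275 tags over a CXD101 level of 43.4, a fold enrichment of 2.19 (−log10 p-value 13.1). The CXD101 lost peak lay 8.0 kb before the gene, in an intron of Ifnar2, which encodes a chain of the type I interferon receptor (91397960 to 91398161). Vehicle had 77 tags there over a CXD101 level of 29.0, a fold enrichment of 2.60 (−log10 p-value 13.4). The gene model Gm21970 runs across both sites. Il10ra, the chain that binds IL-10 itself, had no peak in any list.

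By the 20 kb window, Tnf, Lta, Ltb and both TNF receptors were all in the MS-275 gained list. Tnf, Lta and Ltb lie within a short stretch of chromosome 17, so most of their peaks are the same peaks. Of 6 gained summits, 3 lay in introns of Lst1 upstream of Ltb, 1 lay between Lst1 and Ltb (35189456 to 35189674), and 2 lay on the far side of Lta (35218396 to 35218960). At all 6 gained summits, the nearest start site was that of Lst1 or Gm16181, and not that of Tnf, Lta or Ltb. The peak next to Ltb was 4765 bp before that gene and counted as its promoter peak, though its summit was 1109 bp from a start site of Lst1. MS-275 had 50.7 tags there over a vehicle level of 17.4, a fold enrichment of 2.82 (−log10 p-value 10.3). In the direct list, the same site had 52.5 MS-275 tags over a CXD101 level of 17.7, a fold enrichment of 2.88 (−log10 p-value 12.3). The summits beyond Lta had fold enrichments of 3.21 and 2.81 and −log10 p-values of 12.7 and 13.1.

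At Tnf itself, a direct peak covered the start of the gene (35201778 to 35202016), with its summit 129 bp into it. MS-275 had 71.7 tags over a CXD101 level of 39.9, a fold enrichment of 1.78 (−log10 p-value 6.18). No MS-275 gained peak lay at this place. A further direct peak beyond Lta (35219900 to 35220123) had 111.9 MS-275 tags over 50.5, a fold enrichment of 2.196 (−log10 p-value 15.1). Of the direct peaks of this locus it had the highest −log10 p-value, while the peak next to Ltb had the highest fold enrichment.

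**Figure D4:**
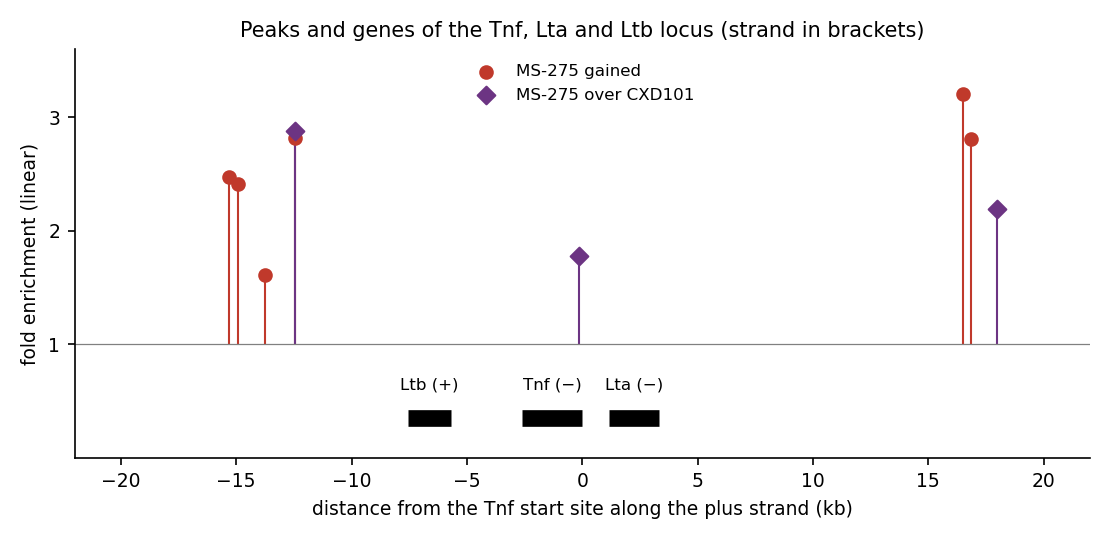
Fold enrichment as a linear ratio (y axis) of peaks around Tnf, Lta and Ltb by the distance of their summits from the Tnf start site in kb (x axis), with circles for MS-275 gained peaks and diamonds for MS-275 over CXD101, and black bars for the genes. Gained peaks stand on both sides of the 3 genes and none stands at the genes themselves, where only the direct peak at the Tnf start (fold enrichment 1.78) is found.

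Tnfrsf1a encodes TNFR1, the receptor with a death domain, and had 4 gained summits upstream on chromosome 6. The strongest (125340207 to 125340850) had 60.3 tags over 15.6, a fold enrichment of 3.69 (−log10 p-value 17.6), 9009 bp before the start site in an intron of Scnn1a. The nearest was 4121 bp before the start site, with 69.9 tags over 26, a fold enrichment of 2.63 (−log10 p-value 12.1). Tnfrsf1b, which encodes TNFR2, had 6 gained summits on chromosome 4, 3 on each side of the gene and none inside it. The strongest (145261288 to 145262058) had 66.5 tags over 18, a fold enrichment of 3.55 (−log10 p-value 18.1), 14952 bp before the start site. The 3 summits beyond the end of Tnfrsf1b lay 35.5 to 46.5 kb from its start site. Their nearest start site was that of Vps13d, 5.33 to 16.4 kb away. Neither receptor was in the direct list, which does not show that the inhibitors acted alike there. Tnfsf9, Tnfsf10, Tnfsf13b and Tnfsf14, the remaining TNF superfamily ligands, had no peak in any list.

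In the TGF-beta family, the ligand and a receptor had peaks that were higher with MS-275 than with CXD101. Tgfb1 had the direct peak with the highest −log10 p-value of all members (chromosome 7, 25683790 to 25683998), 3.004 kb before the gene in an intron of B9d2. MS-275 had 138.1 tags there over a CXD101 level of 59.3, a fold enrichment of 2.31 (−log10 p-value 20.4). Tgfb1 was in neither list of MS-275 against vehicle. Tgfbr2, the receptor kinase that binds the ligand first, had 2 gained peaks inside the gene on chromosome 9. The stronger lay in the last part of the gene (116084593 to 116084814), with 115.4 tags over 40.8, a fold enrichment of 2.79 (−log10 p-value 21.2). The other lay in an intron (116161137 to 116161344), with 42.8 tags over 15.4, a fold enrichment of 2.67 (−log10 p-value 8.22). A direct peak at the intronic site had 40.2 MS-275 tags over a CXD101 level of 19.9, a fold enrichment of 1.98 (−log10 p-value 4.99). Tgfbr1, the partner kinase, had its nearest peak 32.9 kb away.

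The colony-stimulating factors Csf1, Csf2 and Csf3 had no peak, and the receptors differed among themselves. Csf2ra, the binding chain of the GM-CSF receptor, had 4 gained peaks on chromosome 19. The 3 inside the gene had low fold enrichments, of 1.61, 1.80 and 1.996 from vehicle levels of 42 and 56, in windows of 64.7% to 67.7% G and C. The strongest lay 16.6 kb before the gene (61245042 to 61245255), with 76.9 tags over 26.4, a fold enrichment of 2.84 (−log10 p-value 15.0). Csf2rb, the signalling chain shared by GM-CSF, IL-3 and IL-5, had a direct peak in an intron (chromosome 15, 78351673 to 78351902) with 51.6 MS-275 tags over a CXD101 level of 20.1, a fold enrichment of 2.51 (−log10 p-value 9.72). Csf2rb2 is a close copy of Csf2rb, and reads of such genes can be placed on either of them. Csf2rb2 had no peak in its own window.

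Flt3, the receptor of FLT3 ligand on dendritic cell precursors, had a gained peak 18.1 kb before the gene in an intron of D5Ertd605e (chromosome 5, 147418616 to 147418844). The nearest start site was that of Pan3, 11441 bp away. MS-275 had 89.2 tags over a vehicle level of 29, a fold enrichment of 3.01 (−log10 p-value 19.0), and in the direct list 88.3 tags over a CXD101 level of 37.1, a fold enrichment of 2.35 (−log10 p-value 13.9). Csf1r, Csf3r, Il3ra and Kit had no peak in any list. The nearest MS-275 gained peak to Csf1r, the receptor of CSF1 and a marker of monocytic cells, was 52.8 kb away.

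Of the common gamma chain and IL-4, IL-13, IL-15 and IL-17 genes, only Il4ra was listed. Il4ra, the chain that binds IL-4 and signals for IL-13, had a direct peak 3.54 kb beyond the gene (chromosome 7, 125583010 to 125583369) with 46.3 MS-275 tags over a CXD101 level of 20.2, a fold enrichment of 2.24 (−log10 p-value 7.21). It had no peak against vehicle. Il2rg, Il7r, Il13ra1, Il15, Il15ra and Il17ra had none in any list. For 22 of the 54 members, the nearest MS-275 gained peak was over 100 kb away. All genes were not counted at this distance, so the number cannot be called high or low.

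The feedback inhibitors were in opposite lists. Socs1, an inhibitor of JAK kinases after interferon and IL-4, was gained with MS-275 9.64 kb beyond the gene (chromosome 16, 10772380 to 10772602), with 58.6 tags over a vehicle level of 17, a fold enrichment of 3.31 (−log10 p-value 14.8). The direct list gave 59.5 MS-275 tags over a CXD101 level of 21.99 at this site, a fold enrichment of 2.64 (−log10 p-value 11.998). Socs3, which inhibits signalling of IL-6 family receptors and of the G-CSF receptor, was lost with both inhibitors in an intron of Pgs1. Vehicle had 116 tags over an MS-275 level of 69.1 (chromosome 11, 117989827 to 117990210, fold enrichment 1.67, −log10 p-value 7.02). The CXD101 lost peak with the highest −log10 p-value had 115 vehicle tags over a CXD101 level of 72.1 (117989841 to 117990278, fold enrichment 1.59, −log10 p-value 5.91). These peaks lay 19.78 kb and 19.79 kb from Socs3, at the very edge of the window and far closer to Pgs1. For Socs1, a further gained peak at 20.76 kb (fold enrichment 2.10) and a direct peak at 20.77 kb (fold enrichment 2.12) lay just outside the window.

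At 5 sites the summits of a gained peak and a direct peak lay within 63 bp of each other. This gave MS-275 tags and a control level each for vehicle and CXD101. The CXD101 level was near the vehicle level at the Ltb site (17.7 against 17.4 tags), while MS-275 had 50.7. It was above the vehicle level at Flt3 (37.1 against 29), Il10rb (43.4 against 36.2), Socs1 (21.99 against 17) and Tgfbr2 (19.9 against 15.4), and MS-275 was higher than both at each site. The sites were selected for a high MS-275 signal, so the order of MS-275 above the others is fixed by the choice. Levels in the second group are control levels of the test and upper estimates, not pileups at the summit. They do not give the order of CXD101 and vehicle at these sites. Whether CXD101 differed from vehicle there was not called in any list.

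**Figure D5:**
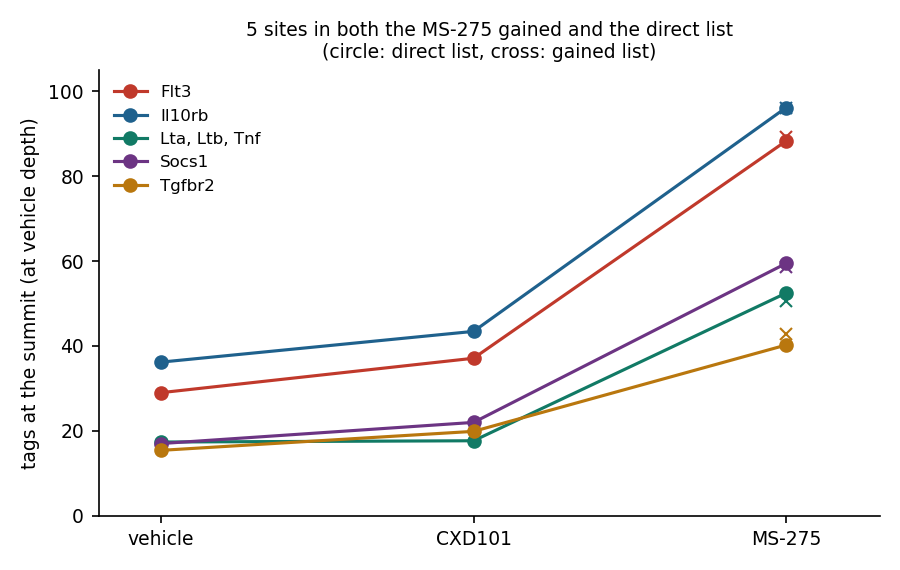
MS-275 tags at the summit and control levels of vehicle and CXD101, all at vehicle depth (y axis), by group (x axis) for the 5 sites in both lists. Lines join the values of a site, circles are from the vehicle level and the direct list, and crosses are the MS-275 value of the gained list. The CXD101 level lies between the vehicle level and the MS-275 tags at all 5, closest to vehicle at the site of Lta, Ltb and Tnf (17.7 against 17.4). The levels are not summit pileups.

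Of the 53 member summits, 27 (50.9%) lay over 5 kb from any annotated start site of a protein-coding gene, compared with 64.7% of all summits in these 4 lists. A site found in several lists was counted in each of them, for members and for whole lists alike. The members' windows lie around genes, which by itself brings their summits closer. The number was 20 of 35 for MS-275 gained (57.1%, whole list 64.1%), 1 of 3 for MS-275 lost (whole list 69.2%), 1 of 5 for CXD101 lost (whole list 65.7%) and 5 of 10 for the direct list (whole list 65.6%). The median distance of gained summits was 8.71 kb (whole list 11.6 kb), and 6 of them lay within 1 kb. Gained summits were intergenic for 17, intronic for 14 and exonic for 4, and the closest start site belonged to a member for 25. A gained peak in the 5 kb before an annotated start site was found for 5 members (9.26%, all genes 5.92%), namely Csf2ra, Il10rb, Il12a, Ltb and Tnfrsf1a. For MS-275 lost (Il18rap) and CXD101 lost (Il18rap) it was 1 member each (1.85%), where all genes had 0.528% and 0.724%. The direct list had 4 (Il10rb, Ltb, Tgfb1 and Tnf, 7.41%) where all genes had 1.54%, and CXD101 gained had none (all genes 0.241%). The median length of the member genes was 19.5 kb and that of all protein-coding genes 17.4 kb.

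Searched motifs were rare under the member summits. Within 100 bp of a summit on either strand, TGACTCA or TGAGTCA (AP-1) was found at 2 of 35 MS-275 gained summits (5.71%, whole list 2.79%), at Tnfrsf1b and beyond Lta. GAAANNGAA (IRF) and TTCNNNGAA (STAT) were at 2 each (5.71%, whole list 6.33% and 6.27%), and TGTGGTT (RUNX) was at 2 (whole list 4.79%). GAGGAAGT (PU.1) and TTGCNNAA (C/EBP) were at 1 each (2.86%, whole list 1.83% and 9.02%). GGGANTTTC (NF-kB) was at none, compared with 0.696% of the whole list. The Socs3 summit lost with MS-275 held both an AP-1 and a STAT motif (whole list 18.1% and 5.64%), and of the 5 CXD101 lost summits, both at Socs3 held STAT (whole list 6.93%), 1 held AP-1 (whole list 14.4%) and 1 held RUNX (whole list 5.19%). In the direct list, STAT was found at Tgfb1 (whole list 6.48%) and RUNX at Il4ra (whole list 5.52%). None of these motifs contains another, although matches can share bases. A match describes letters and not binding.

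Genes that act with the members were counted in the same windows. MS-275 gained peaks, found at 18.6% of all genes, lay at 6 of 20 JAK-STAT genes (30%, Jak3, Stat3, Stat4, Stat6, Socs2 and Socs6), at 6 of 26 genes of TNF receptor and IL-1 receptor signalling (23.1%, among them Nfkb1, Birc3 and Traf1), at 7 of 15 TGF-beta signalling genes (46.7%, among them Smad1, Smad7, Ski and Skil) and at 11 of 37 other cytokine receptors (29.7%). The last group held all 4 listed chains of the interferon receptors (Ifnar1, Ifnar2, Ifngr1 and Ifngr2). The peaks of the member Il10rb in the MS-275 gained, CXD101 lost and direct lists also lie in the window of Ifnar2. Ifnar2 thus counts these peaks again. CXD101 gained peaks, absent from the members and found at 0.961% of all genes, lay at Stat6 and Smad7 in these lists. Of all genes, 2.9% had an MS-275 lost peak and 3.62% a CXD101 lost peak. Lost peaks lay at 2 of 20 JAK-STAT genes with MS-275 (10%) and at 3 with CXD101 (15%), and both included Jak2 and Ptpn6. In TNF receptor and IL-1 receptor signalling, Irak3 had a lost peak with MS-275 and Traf1 with CXD101, and both genes were also in the MS-275 gained list. In TGF-beta signalling, Smad3 had a CXD101 lost peak and no gene an MS-275 lost peak. Of the other cytokine receptors, Il1rl1 was lost with MS-275, and Il1rl1, Il1rl2 and Ifnar2 with CXD101. The direct list, with 6.62% of all genes, held 4 of 20 JAK-STAT genes, 3 of 26 of TNF receptor and IL-1 receptor signalling, 1 of 15 of TGF-beta signalling and 6 of 37 other cytokine receptors.

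Marker genes of monocytes and macrophages and of other cell types were also counted. MS-275 gained peaks lay at 9 of 14 neutrophil markers (64.3%), 8 of 17 monocyte and macrophage markers (47.1%) and 8 of 25 T and NK cell markers (32%), against 18.6% of all genes and 29.6% of the members. They also lay at 2 of 10 B cell markers, 2 of 10 dendritic cell markers (Ccr7 and Flt3) and 1 of 10 hepatocyte and hepatoma markers (Hnf4a). CXD101 gained peaks lay at none of these 6 marker lists, where 0.961% of all genes had one, so none says little at these numbers of genes. MS-275 lost peaks were found at 1, 3, 2, 0, 1 and 0 genes in the same order (all genes 2.9%). CXD101 lost peaks were found at 0, 3, 2, 0, 1 and 0 (all genes 3.62%). Peaks higher with MS-275 than with CXD101 were found at 1, 3, 1, 0, 1 and 1 (all genes 6.62%). The part of other cell types in the peaks at cytokine genes was not tested. The lists hold only sites that differ between groups, so the labelled cell type could not be checked from open markers.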

How the data were processed

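ATAC-seq libraries of sorted M-MDSCs were compared as pooled groups, with group labels taken from the sample titles. The authors aligned reads to mm10 with Bowtie2 and called peaks with MACS2 2.2.7.1 (submitters' processing notes), without a model and with a shift of 0, which leaves summits uncorrected for the transposase cut. For each peak they deposited a fold enrichment at the summit after scaling to equal depth. It is a linear ratio of the tags of the first pooled group to the control level of the second. They deposited the significance as a −log10 p-value and a −log10 q-value of a Poisson test. The summit was deposited as bases from the peak start. No q-value above 0.05 was found in any list, while the methods name a threshold on p. Some member peaks did not reach that threshold, and it was not among the alternatives. They include the only MS-275 lost peak of Lif and Osm (−log10 p-value 4.67). The only direct peak of Tgfbr2 (4.99) is also among them. How reads with several placements were treated is not given in the sources used here.

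Each summit counted as 1 peak. Overlap needed 1 base. Tags and levels were solved from fold enrichment and p-value with the MACS2 pseudocount of 1, which gave 1 solution for every member peak, and the procedure was tested on simulated data. Pooled depth was 1.14 times vehicle for MS-275 and for CXD101, and reads per library were not used here. Sequence came from the RefSeq copy of GRCm38 (mm10), where promoter sequences of 53 of 53 members matched. Sequences of further promoter summits are not reported here. No test was run, since no value per library was used. Percentages have 95% Wilson intervals.

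Members and lists were chosen with earlier results of these data known. Named with values were members in a CXD101 gained, lost or direct list and, of those gained only with MS-275, up to 12 with the highest −log10 p-values. Members with no peak were named. Alternatives were windows, promoter rules, q-value and fold limits, nearest genes, backgrounds, motif windows and the pseudocount. Python 3.11.15, pandas 2.3.3, scipy 1.17.1 and pysam 0.24.0 were used.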

Additional observations from a re-analysis of the deposited data

Results flagged for a closer look

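The direct lists gave a difference between the inhibitor groups at 10 members (18.5%, all genes 6.62%). All had more signal in MS-275 and none had more in CXD101 (all genes 0.0137%). The whole lists held 1650 and 2 peaks, so this direction was that of the series. The difference was tested by MACS2 on the pooled libraries, without replicates. Of the 10 members, 7 also had an MS-275 gained peak, and Csf2rb, Il4ra and Tgfb1 did not. The share of all genes in both lists was not counted.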

How the results depend on the processing

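No paired analysis was possible because every list compares pooled groups without library values, and no replicate could be left out. Members with an MS-275 gained peak numbered 10 within 5 kb, 25 within 50 kb and 8 in the gene plus 5 kb upstream, with 17 and 65 peaks for the first 2 windows. For MS-275 lost, the same windows gave 1, 7 and 1 members and 1 and 6 peaks, and for CXD101 lost 1, 11 and 1 members and 1 and 12 peaks. The direct list had 6 members in the gene plus 5 kb upstream and 18 peaks within 50 kb. Of all genes, 12.7% (MS-275 gained), 1.9% (MS-275 lost), 2.23% (CXD101 lost) and 4.04% (direct) had a peak within 5 kb, and 28.3%, 5.06%, 6.29% and 10.9% within 50 kb. With peaks given only to the nearest start site, MS-275 gained had 11 members, without Tnf, Lta, Ltb, Flt3 and Il18r1. By that rule the direct list had 5, MS-275 lost had 2 and CXD101 lost had 1. A q-value under 0.01 left 2 members for MS-275 lost, without Osm and Lif, and a fold enrichment of at least 2 left 3 peaks for CXD101 lost. Within 1 kb of a start site there were 3 members for MS-275 gained and 2 for the direct list. The share of all genes was not counted for the gene plus 5 kb upstream, nearest start sites, stricter limits or the 1 kb promoter. Those member counts therefore have no background beside them. Over all annotated genes the background was 1.9% for MS-275 lost and 2.27% for CXD101 lost. A pseudocount of 0 solved 0 member peaks in each list. With motif windows of 50 bp, the shares fell to 0 for PU.1 and RUNX (MS-275 gained), AP-1 and STAT (MS-275 lost), AP-1 (CXD101 lost) and RUNX (direct). In all, 89 values stayed within 1.5 times those reported or, for motif shares, within their 95% interval. The 11 members by nearest start site are among them. Sites with few tags in both groups could not be called at this depth.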
